A study of Mus musculus with 4 samples.

Results

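Nt5e, F3, Ptpn14 and Ankrd1 are 4 genes known as targets of the transcriptional co-activator YAP and its DNA-binding TEAD partners, and their chromatin accessibility was measured by ATAC-seq in mouse fibroblasts. ATAC-seq uses the Tn5 transposase to cut open chromatin, so the signal of a region follows how accessible it is. Every region that the authors' tables assigned to these genes by name was taken. That gave 11 of 34172 regions, namely 4 of 5727 in the Kindlin-2 table and 7 of 28445 in the Rela table. The genes were chosen from their measured ratios in these same comparisons, so their differences are described here without a test.

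The first pair consisted of kidney fibroblasts labelled Kindlin-2 K.O. and of kidney fibroblasts labelled Kindlin-2 floxed. Floxed alleles are flanked by recombination sites and are usually intact until Cre recombinase acts. The second pair was made up of embryo fibroblasts of the line 3T3, labelled Rela K.O. and Rela wt. Kindlin-2, encoded by Fermt2, sits at the inner face of integrins and helps to activate them, and the product of Rela is p65, a subunit of NF-kB. All 4 genotypes were cultured in 10% bovine calf serum and were between passages 15 and 20, with 50000 cells per library. The sources used here do not say how the alleles were deleted or whether a line is 1 clone. The design text speaks of 2 biological replicates per genotype, but each genotype has 1 column of values, so the spread between cultures is unknown.

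YAP and its relative TAZ, which is encoded by Wwtr1, shuttle between cytoplasm and nucleus and act on genes through TEAD proteins. The Hippo kinases phosphorylate them and keep them out of the nucleus, while integrin adhesion and actin tension are known to favour their nuclear form in fibroblasts. Nt5e encodes CD73, a surface enzyme that turns AMP into adenosine. F3 encodes tissue factor, the surface receptor that starts coagulation. Ptpn14 encodes a tyrosine phosphatase that binds YAP and restrains it, and Ankrd1 encodes an ankyrin repeat protein of muscle and of stretched or wounded fibroblasts.

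The promoter sequences of the 4 genes are shown because the regions turn on them, and because they differ in the letters that TEAD and AP-1 factors recognise. All 4 genes matched by symbol in the RefSeq promoter table of build GRCm38.p6, which holds 250 bases before and 50 after each start. AP-1 factors are often bound next to TEAD proteins at YAP targets. Capitals mark the TEAD motif GGAATG and the AP-1 motif TGANTCA, each searched on both strands, and no match of one overlapped a match of the other. The Nt5e window lies at chr9:88327359-88327658 on the plus strand, F3 at chr3:121723287-121723586 on the plus strand, Ptpn14 at chr1:189728018-189728317 on the plus strand and Ankrd1 at chr19:36119795-36120094 on the minus strand.
Nt5e: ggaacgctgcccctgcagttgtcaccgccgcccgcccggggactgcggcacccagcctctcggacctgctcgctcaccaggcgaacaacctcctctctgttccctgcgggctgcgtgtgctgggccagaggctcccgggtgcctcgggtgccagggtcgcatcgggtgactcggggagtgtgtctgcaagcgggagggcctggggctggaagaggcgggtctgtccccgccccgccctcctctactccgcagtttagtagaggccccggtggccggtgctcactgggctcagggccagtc
F3: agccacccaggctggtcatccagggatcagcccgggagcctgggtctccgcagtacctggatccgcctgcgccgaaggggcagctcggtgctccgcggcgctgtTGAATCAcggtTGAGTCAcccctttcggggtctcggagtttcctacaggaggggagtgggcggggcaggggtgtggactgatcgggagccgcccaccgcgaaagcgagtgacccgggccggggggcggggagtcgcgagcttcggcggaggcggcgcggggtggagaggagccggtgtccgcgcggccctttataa
Ptpn14: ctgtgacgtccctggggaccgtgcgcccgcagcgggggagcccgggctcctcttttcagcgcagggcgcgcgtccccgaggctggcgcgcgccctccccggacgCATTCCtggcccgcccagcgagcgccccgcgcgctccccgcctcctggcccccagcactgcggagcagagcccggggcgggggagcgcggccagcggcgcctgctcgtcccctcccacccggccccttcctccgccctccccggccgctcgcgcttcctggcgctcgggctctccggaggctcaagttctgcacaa
Ankrd1: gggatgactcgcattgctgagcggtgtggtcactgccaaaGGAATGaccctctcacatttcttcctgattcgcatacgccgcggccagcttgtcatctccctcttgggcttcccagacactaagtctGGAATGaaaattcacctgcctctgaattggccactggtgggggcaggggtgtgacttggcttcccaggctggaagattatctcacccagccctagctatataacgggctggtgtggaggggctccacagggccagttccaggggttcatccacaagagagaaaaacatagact

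The Ankrd1 window held 2 TEAD motifs, beginning 210 and 123 bases upstream of the start, and the Ptpn14 window held 1, on the minus strand, beginning 146 bases upstream. The F3 window held no TEAD motif but 2 AP-1 motifs, TGAATCA and TGAGTCA, beginning 146 and 135 bases upstream. The Nt5e window held neither set of letters. It covered 132 bases of the 263-bp Nt5e region in the Kindlin-2 table and 251 of the 596-bp region in the Rela table. Bases of a region outside its gene's window were not searched. Of all 32851 windows of this length, 14.7% held the TEAD motif, 1.36% held it at least 2 times, and 7.81% held the AP-1 motif. An NF-kB motif, read as GGGA and TTCC with 2 bases between on both strands, was in none of the 4 windows and in 1.47% of all windows. Only these exact letters were searched, so an NF-kB site with other letters would be missed, in F3 as in the other windows. A match describes the letters of the window, not binding.

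Each of the 5 motif matches lay inside a region of its gene in both tables, at least 72 bases from the region's edge in the Kindlin-2 table and at least 126 in the Rela table. The windows also differed in base composition. G and C made up 78.3% of the Ptpn14 window, 71% of the Nt5e window, 70.3% of the F3 window and 54.7% of the Ankrd1 window, and the median of all windows was 52.7%. The CpG dinucleotide occurred 40 times in the Ptpn14 window, 32 in F3, 23 in Nt5e and 7 in Ankrd1, where 7 was also the median of all windows.

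Signal is the authors' background-corrected, normalized score per region, and levels are compared within a table only. The ratio of 2 signals has an exact 95% interval for counting error alone, from counts implied by the values. A region was called at a 2-fold difference, that is a log2 ratio of at least 1 in size after adding 1 to both signals. In a bulk sample, fewer cells with an open region and less opening per cell cannot be told apart. The tables summed to 114217 in Kindlin-2 K.O. and 134996 in floxed cells outside 2 mitochondrial regions, which held 86.2% of the whole sum in K.O. and 91.8% in floxed cells, and to 1458609 in Rela K.O. and 1386832 in Rela wt cells. Per region the median signal was 16 in both Kindlin-2 genotypes, and 35 in Rela K.O. and 34 in Rela wt cells.

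Fermt2, which encodes Kindlin-2, had no region in either table. The 1 region of Rela, at its promoter, held 27 in Rela K.O. and 21 in Rela wt cells (ratio 1.29, interval 0.725 to 2.16), and a promoter need not carry the deletion. Of 12 fibroblast markers, 8 had a region in the Rela table, with summed signals of 441 in Rela K.O. and 415 in Rela wt cells. Of their 9 regions, 2 were at least 2-fold lower and 2 at least 2-fold higher in Rela K.O. cells. The Kindlin-2 table lists a region for 0 of the 12, so the labelled cell type could not be checked there. Of 12 epithelial markers, 3 had a region in the Rela table (sums of 52 in Rela K.O. and 121 in Rela wt cells) and 0 in the Kindlin-2 table. Of these 3 regions, 1 was at least 2-fold lower and 2 at least 2-fold higher in Rela K.O. cells, so the sums hide opposite directions. The leukocyte gene Ptprc had the 1 region of any marker in the Kindlin-2 table, with 27 in K.O. and 10 in floxed cells. Rela-table regions belonged to 3 of 6 leukocyte markers (sums of 73 in Rela K.O. and 90 in Rela wt cells), to Acta2 alone of 6 smooth muscle and pericyte markers (76 in Rela K.O. and 143 in Rela wt cells), and to 0 of 6 endothelial markers. Of the 4 leukocyte regions there, 0 were at least 2-fold lower and 1 was at least 2-fold higher. Over all regions of that table, 21% were lower and 22.4% higher. The part of these cell types in the results was not tested.

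In fibroblasts without Kindlin-2, the promoter regions of Nt5e, F3 and Ptpn14 were at least 2-fold lower than in floxed cells and that of Ankrd1 was within 2-fold. Of all regions in the Kindlin-2 table, 9.27% were lower by this rule and 16.2% higher, and of promoter regions (centre within 2500 bp of the start) 10.6% were lower and 9.06% higher. Since the genes were chosen from these ratios, nothing is read from 3 of 4 against those shares. In fibroblasts without Rela, both Ankrd1 regions and 1 region of Ptpn14 were at least 2-fold higher than in Rela wt cells, 1 other Ptpn14 region was at least 2-fold lower, and Nt5e, F3 and the Ptpn14 promoter region were within 2-fold. There 21% of all regions were lower and 22.4% higher, and 13.1% of promoter regions were lower and 13% higher. The 4 genes thus had no shared direction in the Rela pair.

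**Figure D1:**
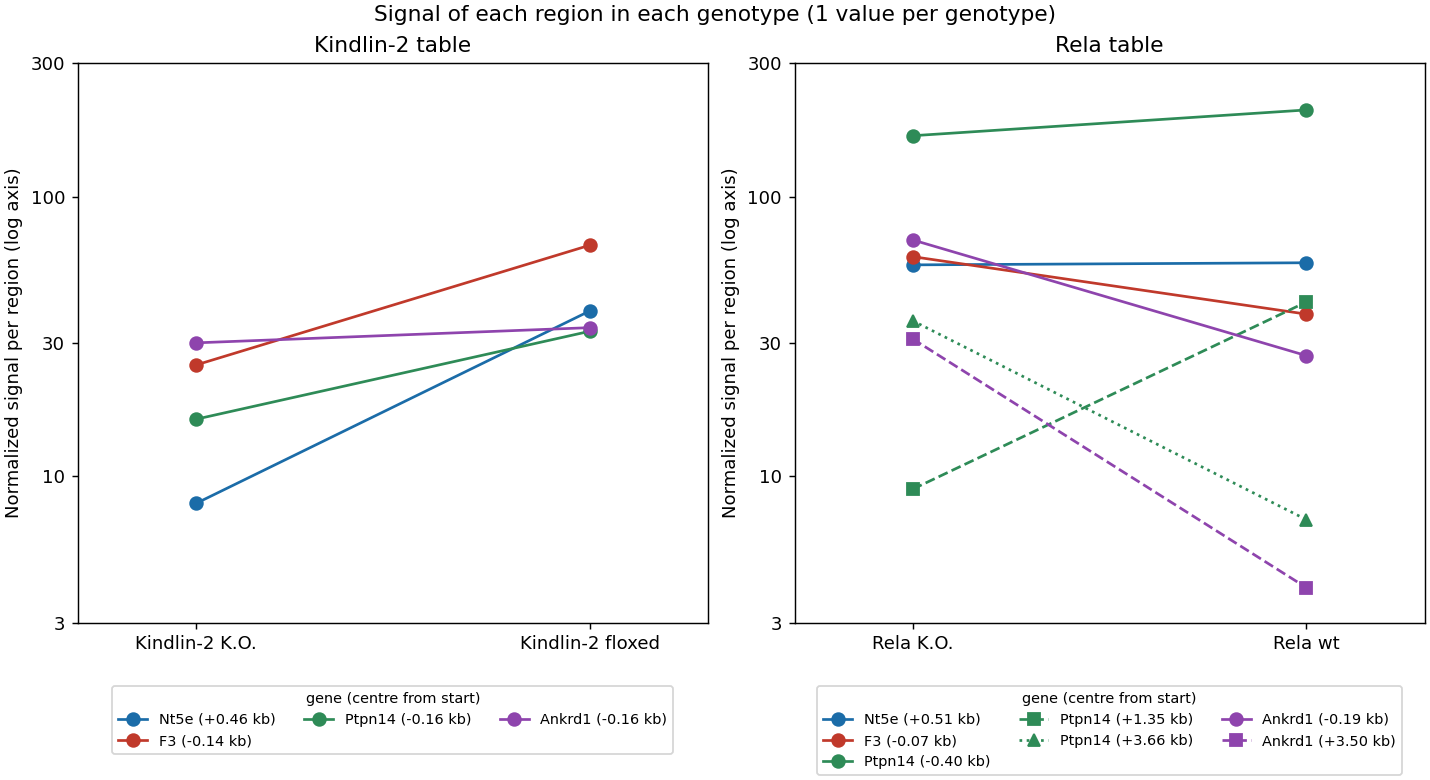
Normalized signal (log axis) of the 4 regions of the Kindlin-2 table (left) and the 7 of the Rela table (right), with 1 value per genotype joined by a line, coloured by gene; the key gives the distance of the region's centre from the start. The Nt5e line lies at 8 in Kindlin-2 K.O. cells against 39 in floxed cells, while in the Rela pair the lines cross, with Ptpn14 regions going both ways.

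Nt5e gave the lowest ratio of the 4 in the Kindlin-2 pair. Its region at chr9:88327527-88327790 held 8 in Kindlin-2 K.O. and 39 in floxed cells, a 4.88-fold difference (interval 2.20 to 12.5) and a log2 ratio of -2.15. Floxed cells had the Nt5e promoter among their stronger regions (percentile 87.8 of the column), and K.O. cells had it among their weakest (percentile 9.39). By log2 ratio it was 22nd from the bottom of 2671 promoter regions. Chromosome 9 as a whole had a median log2 ratio of -0.415 in the Kindlin-2 pair, and after subtracting it the Nt5e log2 ratio was -1.74. Subtracting the median of the 2 other regions within 500 kb gave -1.55. In the Rela pair the Nt5e region, chr9:88327408-88328004, held 57 in Rela K.O. and 58 in Rela wt cells (ratio 0.983, interval 0.693 to 1.38), which is no difference beyond counting error. This wider region contained the whole of the Kindlin-2 one. The Nt5e start in the tables and the RefSeq start are 412 bp apart, and the centre of the Kindlin-2 region lay 462 bp downstream of the table's start and 49.5 bp from the RefSeq start.

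The F3 promoter went in opposite directions in the 2 pairs. Its region at chr3:121723156-121723629, with the centre 144 bp upstream of the start, held 25 in Kindlin-2 K.O. and 67 in floxed cells, a 2.68-fold lower signal in the K.O. (1.62 to 4.51). At percentile 97.1 of the floxed column it had the highest region signal of the 4 there. The overlapping region of the Rela table, chr3:121723240-121723687, held 61 in Rela K.O. and 38 in Rela wt cells, a ratio of 1.61 (1.09 to 2.32). That F3 ratio was below 2-fold, with an interval that lay above 1. The regions shared 389 bases, 82.2% of the Kindlin-2 region and 87% of the Rela one, and both AP-1 motifs lay in the shared part. Chromosome 3 as a whole had a median log2 ratio of 0.53 in the Rela pair, and after subtracting it the F3 log2 ratio was 0.14, against 0.67 as deposited.

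Ptpn14 had 1 region in the Kindlin-2 table and 3 in the Rela table. The Kindlin-2 region, chr1:189728009-189728199, held 16 in K.O. and 33 in floxed cells, 2.06-fold lower in the K.O. (1.04 to 4.11). Its log2 ratio of -1 sits exactly on the threshold, and it was within 2-fold with a pseudocount of 5 (-0.86), after quantile scaling (-0.89) and after loess scaling (-0.81). With a width of 190 bp it was the narrowest of the 11 regions, and the Rela promoter region of the same gene, chr1:189727271-189728467, was 1196 bp wide and contained it.

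In the Rela pair the Ptpn14 promoter region had the highest signal of the 7 regions, with 165 in Rela K.O. and 204 in Rela wt cells, a ratio of 0.809 (0.667 to 0.978). Inside the gene the picture was mixed. The region centred 1347 bp downstream of the start, chr1:189729461-189729768, held 9 in Rela K.O. and 42 in Rela wt cells, 4.67-fold lower in the K.O. (2.41 to 11.2). The next one, centred 3660 bp downstream at chr1:189731782-189732074, held 36 in Rela K.O. and 7 in Rela wt cells, 5.14-fold higher in the K.O. (2.58 to 11.9). A loss and a gain of similar size thus lay within the first few kilobases of 1 gene, and the mean of the 3 log2 ratios was -0.07. Both kept a 2-fold difference under each of the 6 alternatives tried.

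Ankrd1 held the highest ratio of the 7 regions in the Rela pair and the ratio nearest 1 of the 4 in the Kindlin-2 pair. Its promoter region in the Kindlin-2 table, chr19:36119795-36120205, held 30 in K.O. and 34 in floxed cells (ratio 0.882, interval 0.501 to 1.56), with a log2 ratio of -0.18. That sign turned under both scalings, to 0.11 (quantile) and 0.12 (loess). In the Rela table the promoter region, chr19:36119836-36120234, held 70 in Rela K.O. and 27 in Rela wt cells, 2.59-fold higher in the K.O. (1.73 to 3.88). A second region inside the gene, chr19:36116174-36116516, centred 3499 bp downstream of the start, held 31 in Rela K.O. and 4 in Rela wt cells, 7.75-fold higher in the K.O. (3.16 to 22.3). The promoter regions of the 2 tables shared 369 bases, 90% of the Kindlin-2 one and 92.7% of the Rela one, and both TEAD motifs lay in that part. Summed over both regions, Ankrd1 held 101 in Rela K.O. and 31 in Rela wt cells. The tables do not say whether the regions inside Ptpn14 and Ankrd1 are exonic or intronic.

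**Figure D2:**
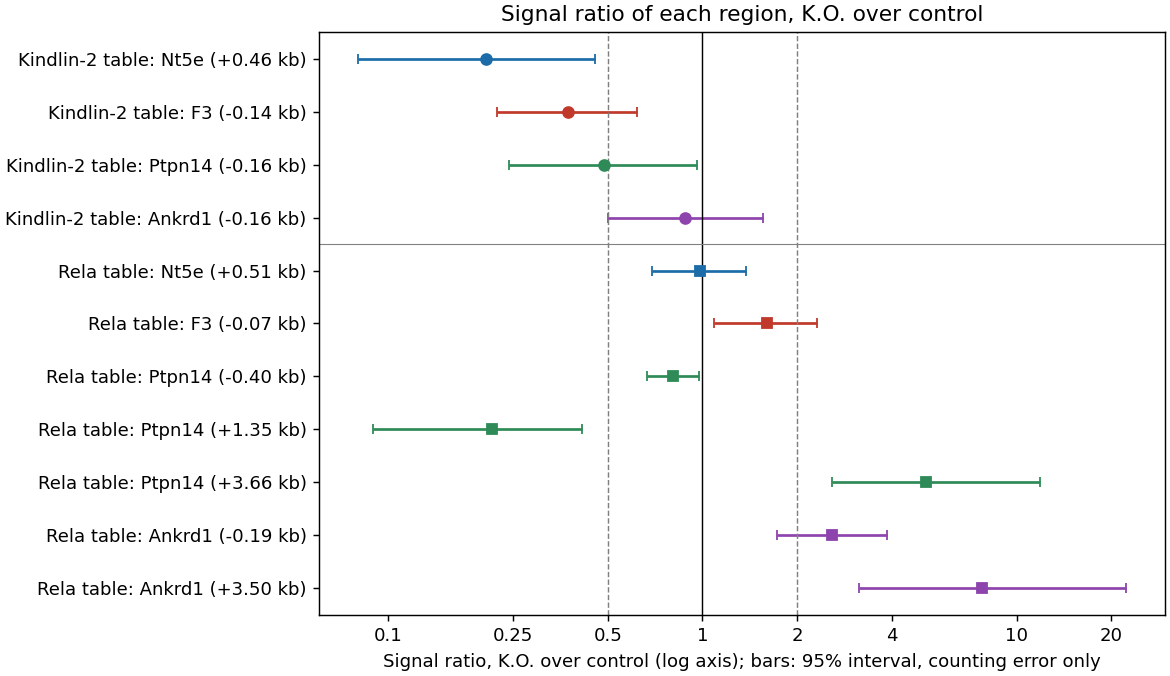
Signal ratio of K.O. over control for each of the 11 regions (log axis), Kindlin-2 table above the line and Rela table below it; bars are exact 95% intervals for counting error alone, and dashed lines mark 2-fold. The Nt5e interval in the Kindlin-2 pair and those of the 2 Ptpn14 regions inside the gene and the inner Ankrd1 region in the Rela pair lie wholly beyond 2-fold.

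Of the 7 regions past 2-fold over both tables, 4 had a counting interval wholly beyond 2-fold: Nt5e in the Kindlin-2 pair, and in the Rela pair both inner Ptpn14 regions and the inner Ankrd1 region. The others were F3 and Ptpn14 in the Kindlin-2 pair and the Ankrd1 promoter in the Rela pair, whose intervals excluded 1 but not 2. These intervals are for signals as deposited, without centring by chromosome, and do not include differences between cultures. In the Kindlin-2 pair they also rest on an assumed depth of the K.O. column. The share of all regions with an interval wholly beyond 2-fold was not worked out, so nothing is read from the 4.

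**Figure D3:**
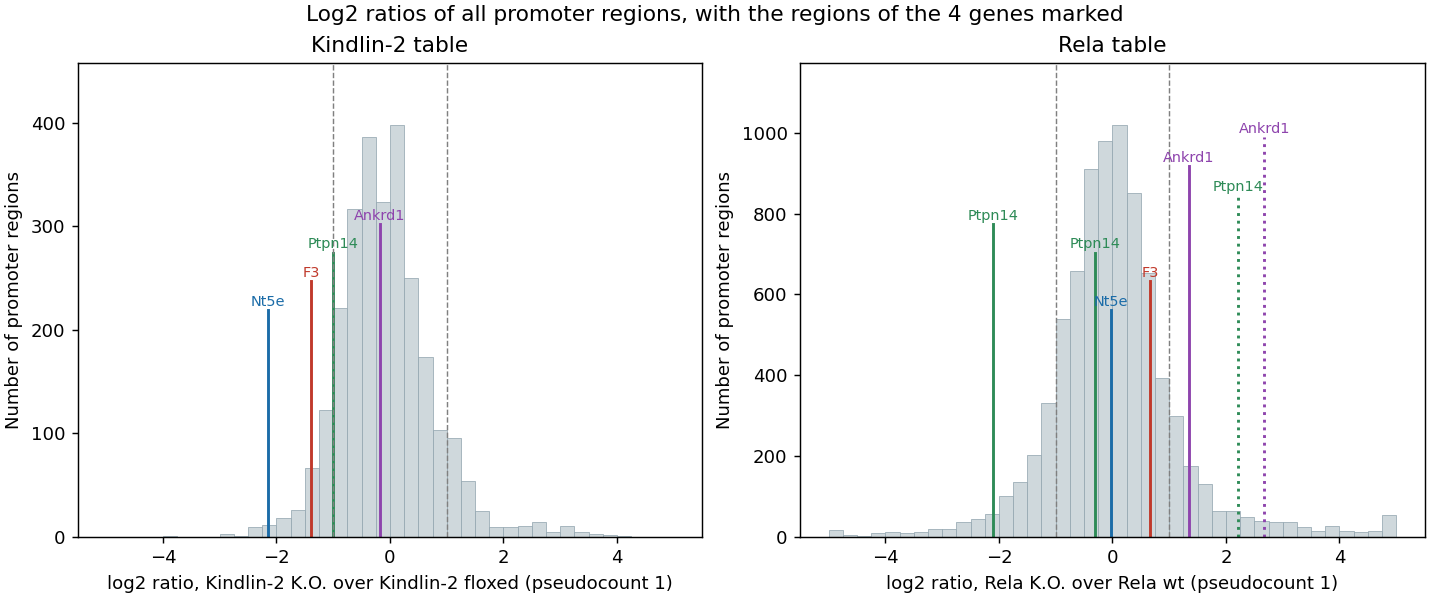
Number of promoter regions by log2 ratio of K.O. over control in bins of 0.25, Kindlin-2 table left and Rela table right, with the regions of the 4 genes as coloured lines whose height has no meaning; dotted lines are regions farther than 2500 bp from the start, the end bars also hold more extreme ratios, and dashed lines mark 2-fold. In the Kindlin-2 panel Nt5e (-2.15) and F3 (-1.39) lie in the left flank, and in the Rela panel the lines run from -2.10 to 2.68.

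Signal level moved with the direction of change in the Kindlin-2 table. Regions were split by signal into 4 groups of like size. In the weakest, 3.77% were lower and 39.8% higher, and in the strongest 15.2% were lower and 2.79% higher. F3 and Ankrd1 fell in the strongest group, Nt5e and Ptpn14 in the next, where 11.5% were lower and 8.32% higher. Higher regions made up 63.5% of those past 2-fold as deposited, 48.7% after quantile and 47.1% after loess scaling. Nt5e and F3 kept a 2-fold difference under both scalings, with log2 ratios of -2.38 and -1.09 after quantile scaling and -2.06 and -1.04 after loess scaling.

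Levels per length put the 4 promoters in the same order in both controls, and in another order in each K.O. In Kindlin-2 K.O. cells signal per 100 bp was 8.42 for Ptpn14, 7.32 for Ankrd1, 5.29 for F3 and 3.04 for Nt5e, and in floxed cells it was 17.4 for Ptpn14, 14.8 for Nt5e, 14.2 for F3 and 8.29 for Ankrd1. Nt5e was thus last of the 4 in the K.O. and second in floxed cells. In Rela K.O. cells signal per 100 bp was 17.6 for Ankrd1, 13.8 for Ptpn14, 13.6 for F3 and 9.56 for Nt5e, and in Rela wt cells it was 17.1 for Ptpn14, 9.73 for Nt5e, 8.5 for F3 and 6.78 for Ankrd1. Ankrd1 stood first in Rela K.O. and last in Rela wt cells. With 1 value per genotype, neighbours in these orders, such as Ptpn14 and F3 in Rela K.O. cells, could not be tested.

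The other genes of the pathway were taken from a list of 23 YAP and TEAD targets, chosen with earlier results known. The Kindlin-2 table measured 5 of them, the 4 genes and the stress-response gene Gadd45a. Gadd45a, the 1 gene not chosen from its ratio, held 26 in K.O. and 23 in floxed cells (log2 ratio 0.17). With the chosen genes included, 3 were lower and 0 higher with a median log2 ratio of -1, which restates the choice. Of all 2480 genes there, 11% were lower and 8.67% higher, with a median of -0.15, and nothing is read from the difference. The Rela table held regions of 16 targets. By the mean over a gene's regions 4 were at least 2-fold lower, 1 (Ankrd1) at least 2-fold higher and 11 within 2-fold, with a median log2 ratio of -0.05, against -0.03 over all 7217 genes, of which 12.1% were lower and 11.9% higher. Without the 4 chosen genes, 12 targets were left, with 4 lower, 0 higher and a median log2 ratio of -0.23. The lower ones were Tgfb2, a TGF-beta ligand (18 in Rela K.O. and 64 in Rela wt cells, 3.56-fold, 2.16 to 6.18), the LIM protein gene Ajuba, the guanine nucleotide exchange factor gene Dock5 and the Hippo kinase gene Lats2. The classical targets Ccn1 (264 in Rela K.O. and 233 in Rela wt cells) and Ccn2 (55 in Rela K.O. and 96 in Rela wt cells) were within 2-fold.

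Ajuba had 3 regions, of which the one 3240 bp from the start held 4 in Rela K.O. and 25 in Rela wt cells (6.25-fold lower, 2.39 to 25.7). Its other regions were within 2-fold, the one at 597 bp with 15 in Rela K.O. and 22 in Rela wt cells (1.47-fold lower, 0.767 to 2.81) and the one at 4648 bp with 25 in Rela K.O. and 48 in Rela wt cells (1.92-fold lower, 1.22 to 3.17). Dock5 held 46 in Rela K.O. and 94 in Rela wt cells (2.04-fold lower, 1.48 to 2.94), and Lats2 held 75 in Rela K.O. and 154 in Rela wt cells (2.05-fold lower, 1.58 to 2.68). All 3 lie on chromosome 14, whose median log2 ratio was -0.29. Once chromosomes were centred, or with a pseudocount of 5, 1 target gene was lower in place of 4.

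**Figure D4:**
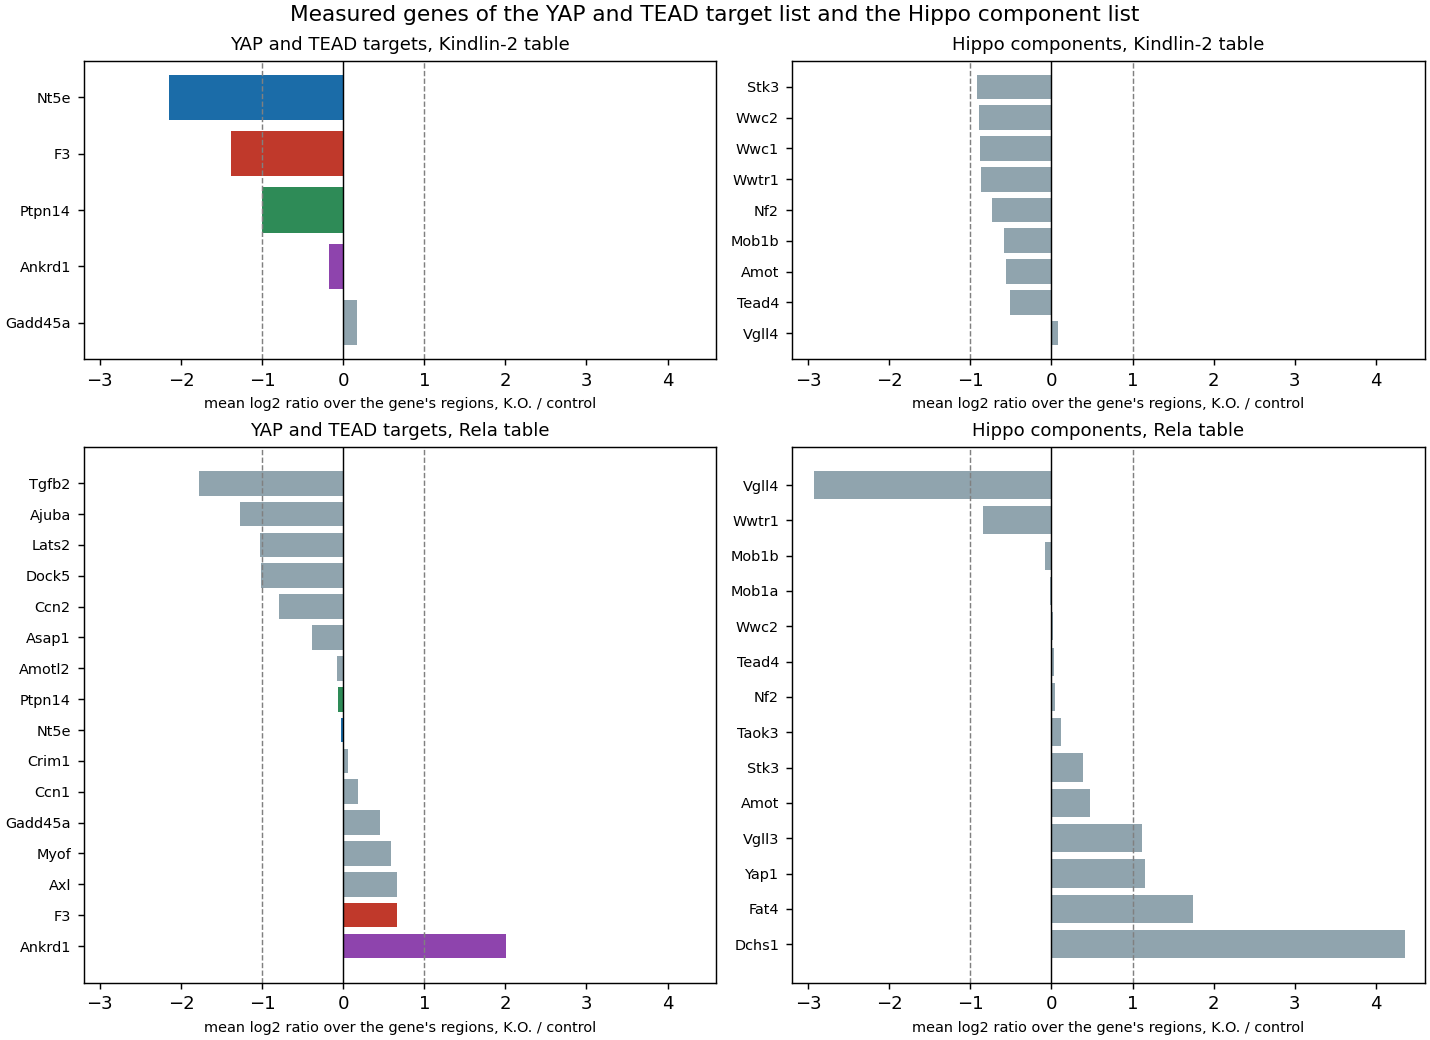
Mean log2 ratio of K.O. over control over each gene's regions, for the measured YAP and TEAD targets (left) and Hippo components (right) in the Kindlin-2 table (top) and the Rela table (bottom); Nt5e, F3, Ptpn14 and Ankrd1 are coloured and dashed lines mark 2-fold. Nt5e and F3 lead the Kindlin-2 targets, no Hippo component passes 2-fold there, and Ankrd1 is the 1 target past 2-fold upward in the Rela table.

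Of 26 genes that encode parts of the Hippo pathway, 9 were measured in the Kindlin-2 pair, and 0 of them was past 2-fold by the gene's mean. Over all genes there, 11% were lower and 8.67% higher. The 9 had a median log2 ratio of -0.74, against -0.15 over all genes. All but Vgll4, which encodes a TEAD co-repressor, had log2 ratios below 0, also after loess scaling, quantile scaling and centring by chromosome. Of all promoter regions in this pair, 56.3% were below 0 as deposited. The genes below 0 included the TAZ gene Wwtr1 (33 in K.O. and 61 in floxed cells, 1.85-fold lower, 1.16 to 3.00), the Hippo kinase gene Stk3 (26 in K.O. and 50 in floxed cells, 1.92-fold lower, 1.142 to 3.33) and the upstream regulator gene Nf2 (20 in K.O. and 34 in floxed cells, with an interval that included 1). The intervals of Amot, Mob1b, Tead4, Wwc1 and Vgll4 included 1 as well, and that of Wwc2 did not. The median of the 9 was -0.54 after loess scaling, -0.60 after quantile scaling and -0.60 with chromosomes centred, and 2 genes passed 2-fold downward under the first 2 of these. They were Amot and Wwc1, which have weak regions, with 5 in K.O. and 8 in floxed cells for 1 Amot region and 5 and 10 for Wwc1. The share of all genes past 2-fold after these scalings was not worked out.

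The Rela table held regions of 14 Hippo genes, of which 4 were past 2-fold upward and 1 downward by the gene's mean, with a median log2 ratio of 0.09. Over all genes of that table, 11.9% were higher and 12.1% lower, with a median of -0.03. Yap1 itself was higher, with 174 in Rela K.O. and 78 in Rela wt cells (2.23-fold, 1.76 to 2.84), while its relative Wwtr1 held 61 in Rela K.O. and 110 in Rela wt cells (1.80-fold lower, 1.35 to 2.46) and passed 2-fold downward with chromosomes centred (-1.37). Genes of the giant cadherins Fat4 (110 in Rela K.O. and 32 in Rela wt cells, 3.44-fold, 2.42 to 4.92) and Dchs1 (40 in Rela K.O. and 1 in Rela wt cells, ratio 40, interval 9.92 to 2359) were higher too. Fat4 lies on chromosome 3, and its log2 ratio was 1.22 with chromosomes centred, against 1.75 as deposited. Vgll3, which encodes a TEAD cofactor, was 2.18-fold higher (559 in Rela K.O. and 257 in Rela wt cells, 1.91 to 2.48) and within 2-fold after loess (0.94) or quantile scaling (0.95). Both Vgll4 regions were lower. One held 22 in Rela K.O. and 50 in Rela wt cells, and the other 0 in Rela K.O. and 25 in Rela wt cells. With the 0 set to a floor of 3 counts in the library, the difference was 8.78-fold, and its exact lower limit was 6.87. The gene Tead4, which encodes a TEAD protein, held 158 in Rela K.O. and 159 in Rela wt cells near its start.

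Regions around the 4 genes were read to see whether the differences extended along the chromosome. Within 100 kb of the gene, Nt5e had 1 other region in the Kindlin-2 table, at the promoter of the sorting nexin gene Snx14, with 10 in K.O. and 20 in floxed cells. Its ratio of 0.5 was on the same side as that of Nt5e, with an interval that included 1 (0.197 to 1.17). Around Ptpn14 all 5 other Kindlin-2 regions had log2 ratios above 0, between 0.09 and 0.86 with intervals that included 1, among them the promoter of the centromere protein gene Cenpf (31 in K.O. and 29 in floxed cells). Chromosome 1 as a whole had a median log2 ratio of 0.263 in this pair, and 47.5% of all Kindlin-2 regions were below 0. The Ptpn14 promoter thus lay on the other side of its neighbours, but nothing is read from so few. The promoter of Rpp30, next to Ankrd1, held 20 in K.O. and 12 in floxed cells. Next to F3, the nearest regions of named genes were those of Slc44a3, 191 kb away (19 in K.O. and 1 in floxed cells, ratio 19, interval 2.22 to 580), and Abca4, 324.1 kb away (31 in K.O. and 30 in floxed cells).

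In the Rela pair 10 other regions lay around Nt5e, of which 3 were at least 2-fold lower and 0 at least 2-fold higher, against 21% lower and 22.4% higher over all regions of the table, so that nothing is read from so few. The median log2 ratio of these neighbours was -0.67, against -0.02 for the Nt5e promoter. Upstream of F3, the region at -36.6 kb held 4 in Rela K.O. and 31 in Rela wt cells, and the one at -71.1 kb held 14 in Rela K.O. and 30 in Rela wt cells. The F3 promoter itself was higher in the K.O. but within 2-fold, with a log2 ratio of 0.14 once chromosomes were centred. The nearer upstream region was also present in the Kindlin-2 table, with 17 in K.O. and 29 in floxed cells. The promoter of Abcd3, the nearest named neighbour of F3 downstream, held 98 in Rela K.O. and 53 in Rela wt cells, in the same direction as F3.

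Inside Ptpn14 an unassigned region 33.5 kb from the start held 48 in Rela K.O. and 5 in Rela wt cells, 9.60-fold higher in the K.O. (4.57 to 26.4). The overlapping region of the Kindlin-2 table held 28 in K.O. and 15 in floxed cells (ratio 1.87, interval 0.903 to 4.16). Another, at -18.7 kb from the Ptpn14 start, held 9 in Rela K.O. and 40 in Rela wt cells, 4.44-fold lower in the K.O. (2.32 to 10.8). Regions with higher and with lower signal thus both lay along this gene in the Rela pair.

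Around Ankrd1 all 4 other regions of the Rela table were lower in Rela K.O. than in Rela wt cells, while both Ankrd1 regions were higher. The largest of these differences was 9.51 kb from the start, just past the end of the gene, with 17 in Rela K.O. and 70 in Rela wt cells (4.12-fold lower, 2.45 to 7.15). The Rpp30 promoter held 84 in Rela K.O. and 163 in Rela wt cells (1.94-fold lower, 1.51 to 2.49). On the other side, the nearest named gene was Btaf1, 806.1 kb from the promoter region, with 77 in Rela K.O. and 31 in Rela wt cells. Among the 4 neighbours within 100 kb, 1 was at least 2-fold lower, against 21% of all regions of the table. Log2 ratios were below 0 in 49.7% of all regions. Within 500 kb of the Ankrd1 promoter region lay 15 more regions, among them the inner Ankrd1 region. Their median log2 ratio was 0.08, and they ran from -1.98 to 3.86. The Ankrd1 gain was thus not seen in the other regions within 100 kb, but nothing is read from so few.

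**Figure D5:**
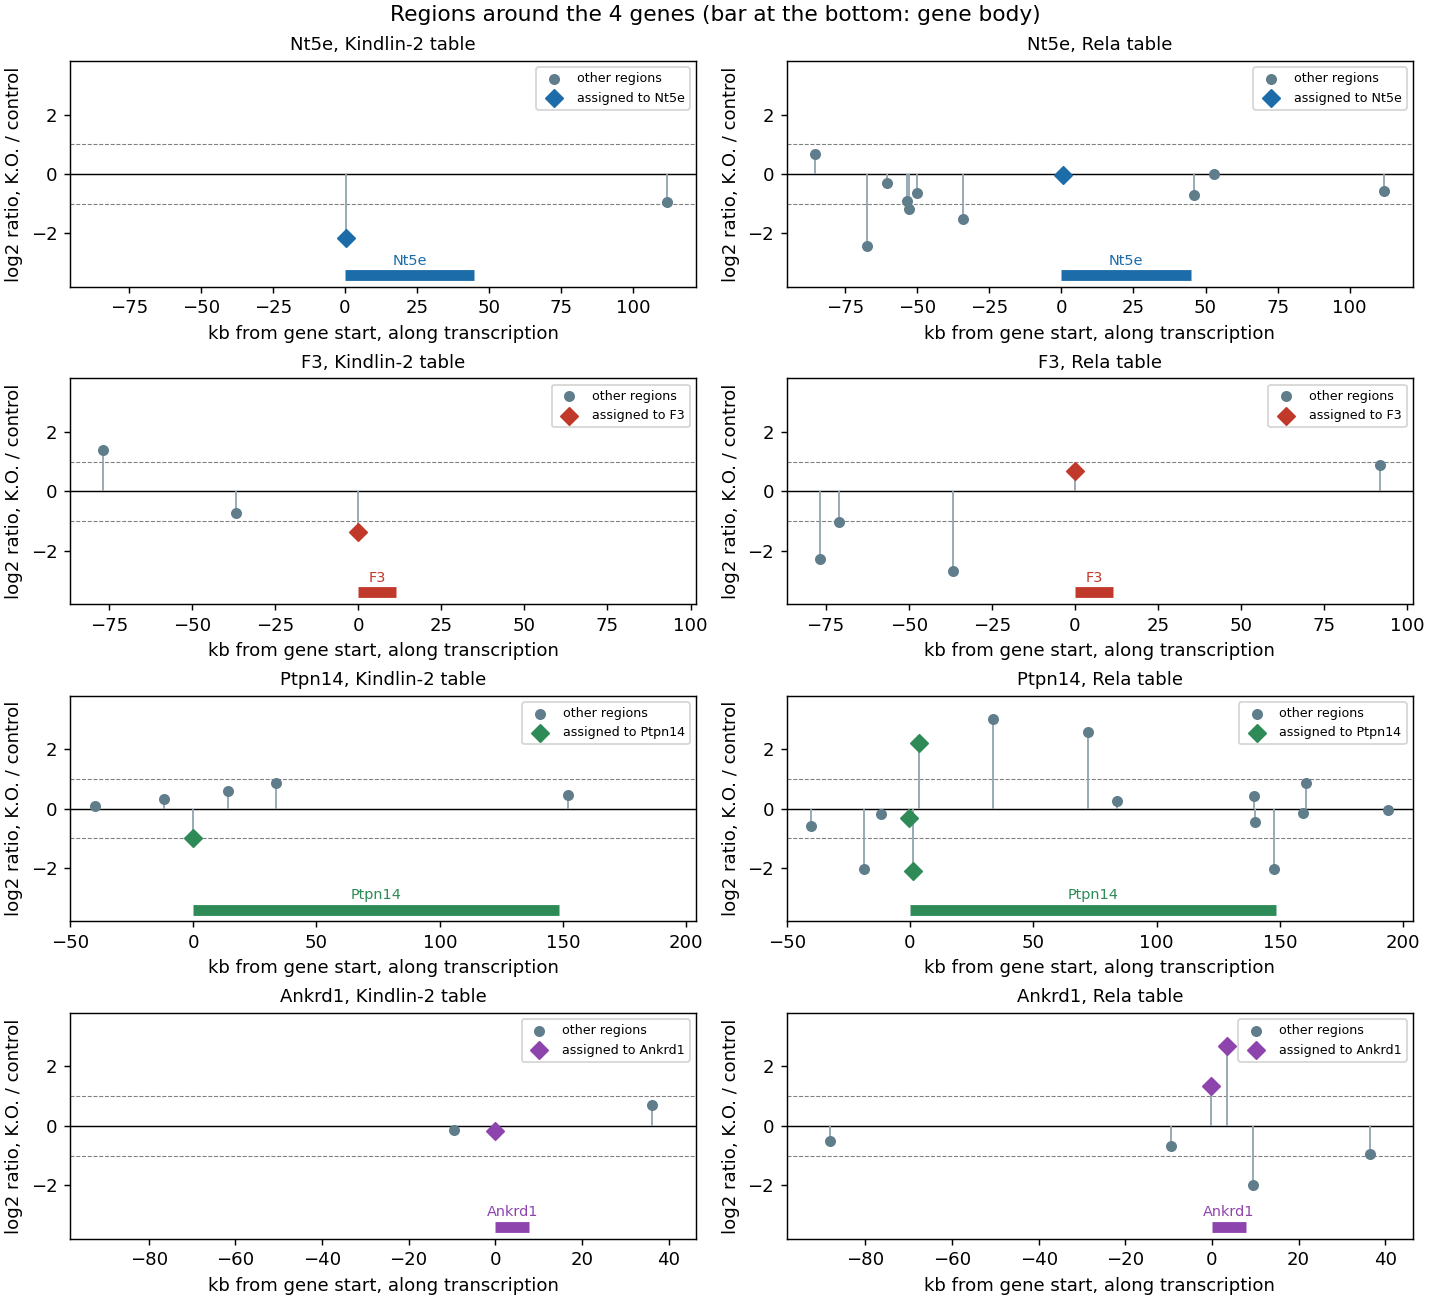
Log2 ratio of K.O. over control of every region within 100 kb of each gene, against distance from the gene's start in kb along the direction of transcription, Kindlin-2 table left and Rela table right; diamonds are regions assigned to the gene, circles are other regions, the bar at the bottom is the gene body and dashed lines mark 2-fold. In the Rela panels both Ankrd1 diamonds (1.34 and 2.68) lie above circles that are all below 0, and Ptpn14 has diamonds on both sides.

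Over both tables, 1904 genes had regions with a mean signal of at least 10 in each, and 234 of them were at least 2-fold lower in Kindlin-2 K.O. than in floxed cells. Of these 234, 202 (86.3%) were within 2-fold in the Rela pair, as were Nt5e, F3 and Ptpn14 by their means, 18 (7.69%) were lower and 14 (5.98%) higher. The shares were close to those of all 1904 genes, with 85.7% within 2-fold, 6.72% lower and 7.62% higher. Likeness of pattern was taken as the distance between 2 genes' pairs of mean log2 ratios, over these 2 comparisons only. Nearest to Nt5e were Vdac3, a mitochondrial channel gene (-2.32 in the Kindlin-2 and -0.04 in the Rela pair), Pabpc1 and Casp16-ps. Nearest to F3 were E2f5 (-1.30 and 0.64), Pcm1 and Ufl1, nearest to Ptpn14 were Zbed4 (-1 and -0.07), Zbtb14 and Wbp1, and nearest to Ankrd1 were Zbtb10 (-0.19 and 2.05), Cyld, a deubiquitinase gene (-0.19 and 1.93), and Hipk1. For Ptpn14 the mean hides regions of opposite direction, so its likeness holds for the mean alone.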

How the data were processed

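ATAC-seq signal was analysed for 4 genotypes in 2 tables. The authors deposited 1 value per region and genotype, which is a score: signal corrected for background, normalized by the DESeq method within its table, as the labels name it, and held as whole numbers. Tools named in the submitters' processing notes, with no role or order, are bedtools, DESeq2, deepTools, FastQC, MACS2, Picard 1.136, STAR 2.4.2a and Trimmomatic 0.33, with build mm10. Any shift of reads for the Tn5 cut, the calling of regions and the joining of replicates are not stated in the sources used here. Coordinates are those of the deposited tables, which do not say whether starts count from 0 or 1. Starts of F3, Ptpn14 and Ankrd1 were 0 bp apart between the tables and the RefSeq promoter table. The deposited distance to the start was used as it stands.

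Log2 ratios used a pseudocount of 1, which understates changes of weak regions, and regions needed a mean signal of at least 1. All 11 regions passed, as did all 5727 of the Kindlin-2 table and 28332 of 28445 in the Rela table. Whole counts that are scaled and then rounded leave some whole values rare or frequent, and the factor behind this pattern gives the counts. It was 1.36 for Kindlin-2 floxed (96.1% of the deviance explained), 0.949 for Rela K.O. (92.3%) and 0.683 for Rela wt (97.8%). For Kindlin-2 K.O. the best factor explained 37%, so a factor of 1 was used and the true depth of that column is unknown. From these counts came exact Clopper-Pearson 95% intervals, which cover counting error only and take background correction as free of error. A self-test on simulated counts of the stronger regions, without background correction, recovered known factors of the control columns and known ratios. It does not cover weaker regions or the unknown depth of the Kindlin-2 K.O. column.

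The 4 genes and the gene lists were chosen with earlier results of these data known. Named genes were all regions of the 4 genes, listed pathway genes past 2-fold (up to 12 genes a table) with others chosen after their values were seen, nearest named neighbours, and the 3 genes nearest in pattern. Listed symbols were matched directly or through RefSeq synonyms, as for Ccn1 and Ccn2. Alternatives were a pseudocount of 5, median centring, quantile scaling, loess scaling (span 0.3), centring by chromosome or by regions within 500 kb, and other filters. No test was possible with 1 value per genotype, and the planned limma fit, which needed replicate columns, was not run. Python 3.11.15, scipy 1.17.1 and statsmodels 0.14.6 were used.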

Additional observations from a re-analysis of the deposited data

How the results depend on the processing

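No paired analysis was possible because each genotype has 1 column of values, and for the same reason no replicate could be left out. Of the 11 regions, 10 stayed within their counting interval under all 6 alternatives. The exception was Nt5e in the Rela pair, with a log2 ratio of 0.53 after subtracting the median of regions within 500 kb, against -0.02. The Ptpn14 region of the Kindlin-2 table was within 2-fold under 3 alternatives, as given with its values, and F3 in the Rela pair passed 2-fold (1.05) when centred on regions within 500 kb. As for counts of regions, the Kindlin-2 table had 925 at least 2-fold higher as deposited, 543 with a pseudocount of 5, 573 after quantile scaling, 450 after loess scaling and 387 with a mean signal of at least 10. There 531 were at least 2-fold lower as deposited and 335 with a pseudocount of 5. Of the target genes in the Rela table, 4 were lower as deposited, 1 with a pseudocount of 5 and 1 with chromosomes centred. The cause was not tested. A median region of Kindlin-2 floxed cells rests on 11.8 implied counts, which limits the precision there. The depth of the Kindlin-2 K.O. column is unknown, so its intervals rest on the assumed factor of 1.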

Other observations

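Over all genes, promoter windows with the TEAD motif were set beside those without it, among regions that overlapped a window of their own gene. For Kindlin-2, 10.5% of 190 regions with the motif were at least 2-fold lower in K.O. than in floxed cells, and 10.8% of 1402 without it. The shares higher were 8.95% with the motif and 7.13% without it. In the Rela pair the shares lower in Rela K.O. were 11.5% of 521 regions with the TEAD motif and 9.95% of 3991 without it. There 9.6% were higher with the motif and 9.35% without it. With the AP-1 motif, 17% of 88 Kindlin-2 regions were lower and 4.55% higher, against 10.4% lower and 7.51% higher of 1504 without it. For Rela, 13.6% of 243 regions with the AP-1 motif were lower and 14.4% higher, against 9.93% lower and 9.09% higher of 4269 without it. With the NF-kB motif, 13.4% of 67 Rela regions were lower and 7.46% higher, against 10.1% lower and 9.4% higher of 4445 without it. Among Kindlin-2 regions 22 had the NF-kB motif, with 13.6% lower and 13.6% higher, against 10.8% lower and 7.26% higher of 1570 without it. These are descriptions of 1 value per genotype, and no test of the difference was made.

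Of the 10 other Kindlin-2 regions within 100 kb of the 4 genes, 8 overlapped a region of the Rela table. One of them, at -76.7 kb from the F3 start, held 12 in Kindlin-2 K.O. and 4 in floxed cells (ratio 3, interval 0.793 to 16.2), and in the Rela pair 5 in Rela K.O. and 28 in Rela wt cells (5.60-fold lower, 2.33 to 19.1).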
